A study of Mus musculus with 4 samples.

Results

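The Id genes, Id1, Id2, Id3 and Id4, are described here on 4 Affymetrix arrays of mouse stem cell cultures. They were taken by gene symbol: every probe set (a group of short probes read as 1 value) that the platform's annotation gives to Id1, Id2, Id3 or Id4 was used, 8 probe sets of 45037. Id1 and Id3 have 1 probe set each, and Id2 and Id4 have 3 each. Over the whole array 18193 genes were named, of which these are 4. The arrays hold RNA of germline stem (GS) cells, which are spermatogonial stem cells in long-term culture. They also hold RNA of GS cells of Trp53 knockout mice, with ICR in the title, of multipotent germline stem (mGS) cells, and of embryonic stem (ES) cells of the line R1. GS cells were grown in a StemPro-based medium, and mGS and ES cells in an ES cell medium, so cell type and medium differ together. The labels give no age, passage, clone or feeder layer, and a strain name is given for the knockout culture only. Each group is 1 culture on 1 array, so differences have no replicate check, no test could be run, and their sizes are a description of these arrays.

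Id proteins are helix-loop-helix proteins that lack the basic region with which related transcription factors touch DNA. They pair with the E proteins, encoded by Tcf3, Tcf4 and Tcf12, and so keep them from binding the E-box sequence together with tissue-specific basic helix-loop-helix (bHLH) partners. Id genes are direct targets of bone morphogenetic protein (BMP) signalling, in which a ligand binds paired receptors that phosphorylate Smad1, Smad5 and Smad9, and these enter the nucleus with Smad4. In mouse ES cells, Id genes induced by BMP or serum are known to act with the LIF signal in holding back differentiation. In the testis, Id4 is known as a marker of spermatogonial stem cells.

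Levels are quantile normalised signals on a linear scale, and differences are given as folds or on the log2 scale. A signal under a floor of 82.7, the array median, was raised to it, and a fold against that floor is given as at least N-fold. Levels of different probe sets were not set against each other, because probes differ in how well they bind. Medians of the deposited signals ranged from 75.7 to 92.3 over the arrays. All 10 germ cell markers measured, such as the RNA helicase gene Ddx4, were above the floor on the GS and knockout arrays. On the mGS array 8 were above it and on the ES array 5. These counts include Dppa3, which ran the other way, at 241 on GS, 1062 on the knockout, 2431 on mGS and 2643 on ES. All 12 pluripotency markers were above it on the mGS and ES arrays, and 8 on each of the GS arrays, where Nanog and Tdgf1 were under it. The signal of Trp53 was not analysed here, so nothing at the targeted gene checks the knockout label.

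Id1 was present on every array and higher on the mGS and ES arrays. Its probe set, 1425895_a_at, read 731 on the GS array, 572 on the knockout array, 1607 in mGS and 1349 in ES cells as deposited. After normalisation these were 709, 521, 1656 and 1410. The GS and knockout arrays thus held the lower values and the mGS and ES arrays the higher ones. The smallest fold over the 4 pairs between them was 1.99, just short of 2-fold.

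Id2 was under the floor on the GS and knockout arrays and well above it on the mGS and ES arrays. Probe set 1422537_a_at, which stands for the gene, read 19.9, 66.6, 774 and 698 as deposited on the GS, knockout, mGS and ES arrays. Probe set 1435176_a_at read 3.76, 69.7, 1235 and 1722 in the same order. Probe set 1453596_at was dim throughout, at 13.7, 31.7, 85.3 and 108. All 3 probe sets put the mGS and ES arrays above the other pair, but in different amounts. Against GS, the mGS array was at least 10.02-fold higher by the first, at least 15.6-fold by the next and at least 1.14-fold by the dim one, which left the floor only barely. The knockout array read higher than the GS array at all 3 probe sets, with both arrays under the floor, where no fold is given.

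Id3 was high on the GS, mGS and ES arrays and low on the knockout array. Its probe set, 1416630_at, read 2392 on the GS array, 181 on the knockout array, 969.9 in mGS and 1859 in ES cells as deposited. Normalised signals were 2334, 165, 1029 and 1919. The knockout value was the lowest and lay above the floor. The other 3 arrays lay within a 2.27-fold range, from mGS to GS.

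Id4 was high on the GS and knockout arrays and low on the mGS and ES arrays. Probe set 1423259_at, which stands for the gene, read 2775, 2444, 279 and 353 as deposited on the GS, knockout, mGS and ES arrays. Probe set 1423260_at read 721, 839, 119 and 177, and probe set 1450928_at 721, 520.04, 145 and 240.3. By all 3 probe sets both GS arrays exceeded both the mGS and the ES array. Id4 remained above the floor on the mGS and ES arrays at every probe set, so its signal was lower there but measured. In cultures read in bulk, fewer cells with the transcript and less transcript per cell cannot be told apart.

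**Figure D1:**
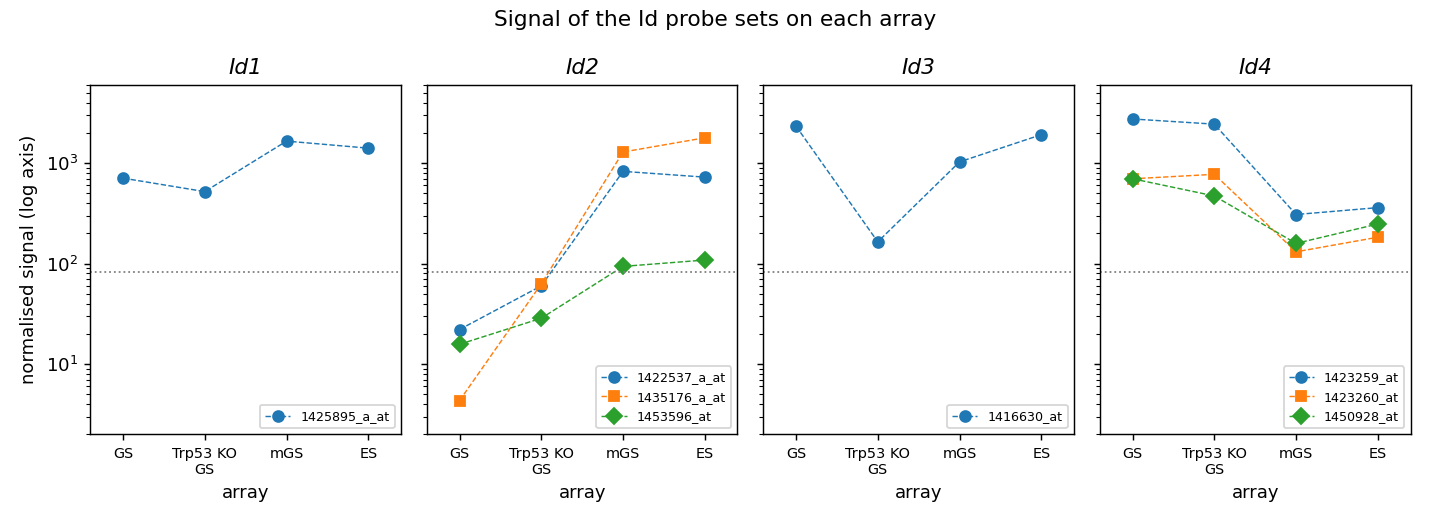
Normalised signal (log axis) of each Id probe set on the GS, Trp53 knockout GS, mGS and ES arrays, with the floor of 82.7 as a dotted line; points are single arrays, broken lines only join a probe set's points, and the arrays have no order. Id2 crosses the floor between the GS and the mGS or ES arrays, Id4 is at 2750.4 on GS and 308 on mGS, and Id3 is low on the knockout array alone, at 165.

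The sequences just upstream of the start sites are shown for Id2, Id3 and Id4, the members with the widest range over the arrays and a window in the RefSeq promoter table of build GRCm38.p6. Each is the 250 bases before the start, 5′ to 3′ on the gene's strand. Capitals mark CANNTG, the E-box that E proteins bind, and GGCGCC, a core of sites bound by BMP Smads. Both motifs read the same on either strand. The windows are chr12:25096093-25096342 on the minus strand for Id2, chr4:136143572-136143821 on the plus strand for Id3 and chr13:48260866-48261115 on the plus strand for Id4.
Id2: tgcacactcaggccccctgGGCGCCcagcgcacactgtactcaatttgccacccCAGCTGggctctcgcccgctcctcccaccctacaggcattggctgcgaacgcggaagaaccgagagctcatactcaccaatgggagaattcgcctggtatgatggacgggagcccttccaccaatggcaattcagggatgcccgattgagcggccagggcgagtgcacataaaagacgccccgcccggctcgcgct
Id3: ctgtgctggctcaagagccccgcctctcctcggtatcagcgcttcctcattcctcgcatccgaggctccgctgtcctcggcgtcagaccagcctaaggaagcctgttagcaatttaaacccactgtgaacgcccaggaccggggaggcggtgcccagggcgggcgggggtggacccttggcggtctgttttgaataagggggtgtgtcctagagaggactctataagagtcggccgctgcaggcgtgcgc
Id4: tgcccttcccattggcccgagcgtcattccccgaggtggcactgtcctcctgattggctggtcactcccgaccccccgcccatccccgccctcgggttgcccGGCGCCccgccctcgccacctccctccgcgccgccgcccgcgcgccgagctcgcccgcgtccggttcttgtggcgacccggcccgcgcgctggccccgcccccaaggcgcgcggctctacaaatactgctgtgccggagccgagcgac
The Id2 window holds 1 GGCGCC and 1 CANNTG, the latter as CAGCTG between 196 and 191 bases before the start. The Id4 window holds 1 GGCGCC, between 148 and 143 bases before the start, and no CANNTG. The Id3 window holds neither. Of 32851 windows of this length in the table, 9.59% hold GGCGCC and 66.2% hold CANNTG. The Id windows are rich in G and C, at 62.8% for Id2, 62.8% for Id3 and 75.6% for Id4, against a median of 52.4% over all windows. A match is a string of letters and not a site shown to be bound, and Smad sites outside these windows were not searched.

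The comparison of mGS with GS cells addresses which molecules differ between GS cells and the pluripotent cells that arise from them. All 4 Id genes differed by at least 2-fold, in opposite directions: Id1 and Id2 were higher and Id3 and Id4 lower on the mGS array. Id2 was at least 10.02-fold higher and Id1 2.34-fold higher. Id4 was 8.93-fold lower and Id3 2.27-fold lower. The other Id4 probe sets gave 5.33-fold and 4.40-fold. Over the whole array 15.3% of the 11981 genes compared were higher by 2-fold or more and 16.5% lower by as much. The 4 members had a median log2 difference of 0.02, beside -0.04 over all genes, because they lay on both sides. A difference as low as that of Id4 was reached by 132 other genes, whereas 1416 others lay as high as Id1 and 1549 as low as Id3. The difference of Id2 is a lower bound and has no rank. Differences read from separate probe sets of a gene had a standard deviation of 0.50 on the log2 scale over 4474 genes. The log2 differences of Id1, 1.22, and Id3, -1.18, come from 1 probe set each.

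Set against the knockout array instead of GS, Id1, Id2 and Id4 kept their direction. Id1 was 3.18-fold higher on the mGS array, Id2 at least 10.02-fold higher and Id4 7.93-fold lower. Id3 changed sides: mGS exceeded the knockout 6.25-fold. The direction of Id3 between mGS and GS cells therefore depended on which GS culture was taken.

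The comparison of ES with mGS cells asks how near the mGS culture came to a line derived from embryos and kept in ES cell medium. None of the 4 Id genes differed by 2-fold between these arrays, where 6.90% of 11816 genes lay higher in ES and 5.13% lower by that much. Id1, Id2 and Id4 had log2 differences of -0.23, -0.19 and 0.23. The standard deviation between probe sets of a gene was 0.45. The other Id4 probe sets gave 0.48 and 0.64, under 2-fold but above that spread. Of the other Id2 probe sets, 1435176_a_at gave 0.47, so the sign for Id2 differed between its probe sets. Id3 came nearest to the threshold and was 1.86-fold higher on the ES array, from 1029 to 1919. The fibroblast marker list was higher there too: by 2-fold or more, 15 of 17 markers compared were higher in ES and 0 lower, with the collagen gene Col1a1 at 245 on mGS and 2805 on ES. Of those higher, Col3a1, Pdgfra and Pdgfrb were each under 2-fold at their other probe set, with log2 differences of 0.87, 0.80 and 0.48. The summed signal of the list was 25444 on the mGS and 90350 on the ES array. The part of other cells in the Id3 difference was not tested. The added poly-A control dap also differed between these arrays, at 255 on mGS and 2545 on ES, and its bearing was not tested either.

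Between the Trp53 knockout culture and the GS culture, Id3 was 14.2-fold lower on the knockout array. Only 6 of the other genes among 11623 had a difference as low, bounds included. Id1 and Id4 lay within 2-fold, with log2 differences of -0.44 and -0.17, and the other Id4 probe sets gave 0.15 and -0.57. Id2 was under the floor on both arrays. Of 3 Id genes compared, 1 was thus at least 2-fold lower and none higher, beside 6.93% and 9.77% of all genes.

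Other measures differed on the knockout array too. The hybridisation controls, RNAs added just before the array step, read lower there than on the GS array: bioC 602 against 3066, or 5.09-fold, bioB 1.60-fold, bioD 1.58-fold and cre 1.22-fold. The added poly-A control dap read 3055 on the knockout and 2545 on the ES array, against 271 on the GS and 255 on the mGS array. The ratio of the 3′ to the 5′ probe set, a measure of RNA integrity, was 0.662 for Gapdh and 1.42 for Actb on the knockout array, and 0.733 and 1.51 on the GS array. Of 13 markers of undifferentiated spermatogonia compared, 7 were lower on the knockout array by 2-fold or more and none higher. Over all genes, 6.93% were lower and 9.77% higher by as much. Among the lower markers was Gfra1, a receptor for GDNF, at 655 against 1564, with its other probe sets lower by less than 2-fold. Zbtb16 and Sall4, of the same list, were 1.29-fold and 1.32-fold higher. Of 10 germ cell markers compared, 3 were higher by 2-fold or more and none lower, beside the same shares of all genes. They were Tdrd1, Dppa3 and Piwil2, the last short of 2-fold in the values as deposited. The summed signal of these 10 was 101975 on the knockout and 84197 on the GS array. Of 14 fibroblast markers compared, 6 were higher by 2-fold or more and none lower, beside the same shares of all genes. The summed signal of the list was 8896 against 5113. The higher ones included Ccn2, 7.90-fold, S100a4, 5.73-fold, Acta2, 2.97-fold, and Postn, at least 2.35-fold. Col1a2, also among them, had a log2 difference of 0.22 at its other probe set. The markers Col3a1, Dcn, Lum and Pdgfrb were under the floor on both of these arrays, Lum on the ES array too. The part of these in the Id3 value was not tested.

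Between the ES and GS arrays, Id2 was at least 8.78-fold higher and Id4 7.63-fold lower on the ES array. The other Id4 probe sets gave 3.81-fold and 2.82-fold lower. Id1, at 1.99-fold higher, and Id3, with a log2 difference of -0.28, were under the threshold. Thus 1 member was higher and 1 lower by 2-fold, where 17.4% and 17.2% of 12107 genes were. This comparison shares the GS array with those of mGS and the knockout. The control dap differed here too, at 271 on GS and 2545 on ES.

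When the mGS and ES arrays were set against the GS and knockout arrays, 2 Id genes differed by at least 2-fold the same way in all 4 pairs. Id2 was higher, by at least 8.78-fold in its closest pair, and Id4 was lower, by 6.78-fold in its closest pair at the probe set that stands for the gene. At the other Id4 probe sets the closest pair, ES against the knockout, gave 4.23-fold and 1.90-fold, so 1450928_at was short of 2-fold there. Of 12897 genes with a signal over the floor somewhere, 7.65% were higher and 8.38% lower by this measure. Id1 was higher in every pair but under 2-fold in the closest. Id3 ran from a log2 difference of -1.18 for mGS against GS to 3.54 for ES against the knockout. Cell type and medium both differ between the sides, so they cannot be told apart.

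**Figure D2:**
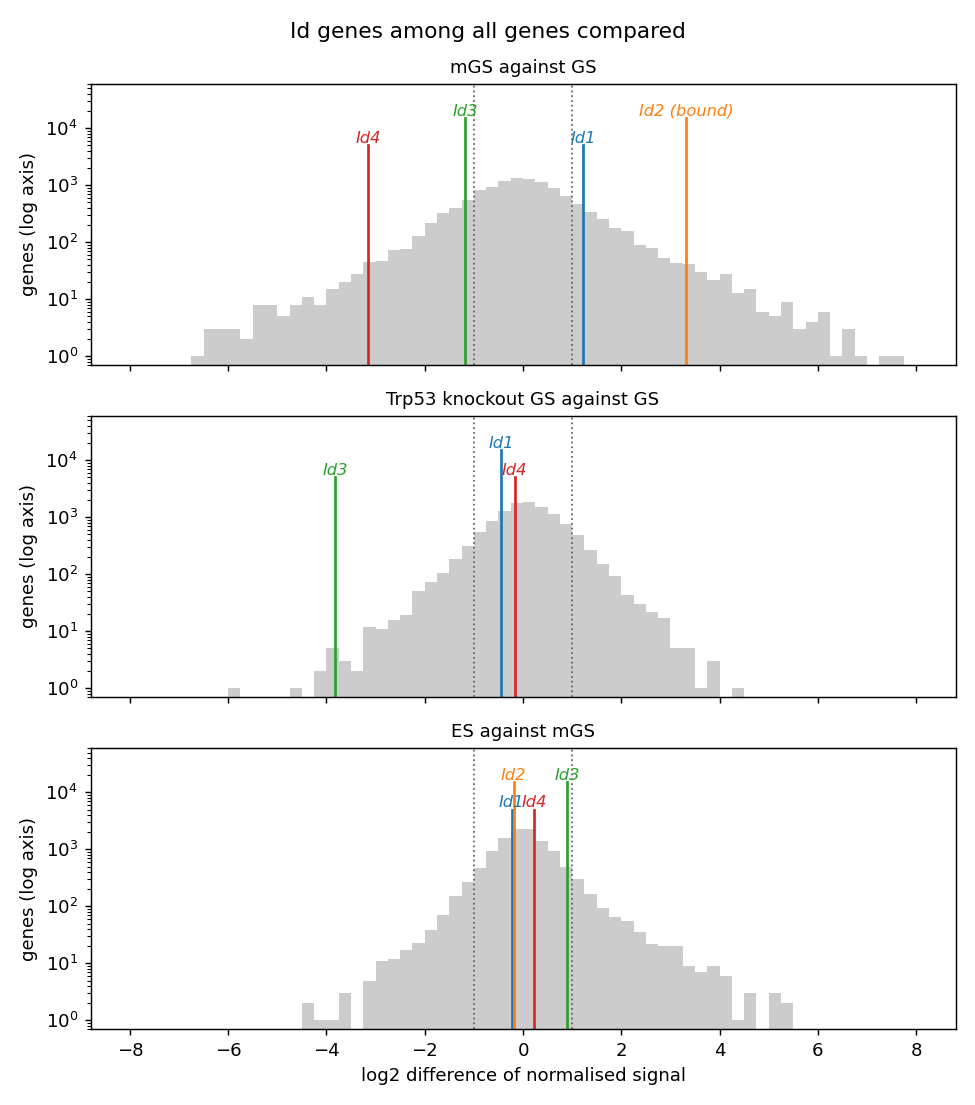
Number of genes (log axis) by log2 difference of normalised signal for mGS against GS, Trp53 knockout GS against GS and ES against mGS, with coloured lines at the Id genes and dotted lines at 2-fold. Id2 (a bound) and Id4 stand far out on opposite sides for mGS against GS, Id3 lies in the lower tail for the knockout at -3.82, and all 4 lie inside the dotted lines for ES against mGS.

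Each Id gene had its own pattern over the arrays. The distance between patterns, the Euclidean distance of log2 signals centred on each gene's mean over the 4 arrays, was 1.92 between Id1 and Id2 and 6.20 between Id2 and Id4. Id3 lay 2.52 from Id1, 3.48 from Id2 and 4.90 from Id4. With a distance of up to 1, 2206 of the other genes had the pattern of Id1, 216 that of Id2, 238 that of Id4 and 5 that of Id3. These counts describe 4 arrays and say nothing of shared control.

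The nearest genes to Id1 were Nif3l1, at a distance of 0.07, Resf1, Eri1, the helicase gene Ruvbl2 and the mitochondrial ribosome gene Mrpl12, at 0.14. Nif3l1 and Eri1 each had another probe set under 2-fold between mGS and GS, with log2 differences of 0.83 and 0.56. The nearest to Id2 were Rpp25, a subunit of ribonuclease P, at 0.11, then Zmat3, Apoc1, the chemokine receptor gene Ackr3 and the glycolytic gene Pgk1, at 0.24. Those to Id4 were Padi3, at 0.08, Scaper, Gsto2, Syne2 and the tight junction gene Marveld2, at 0.24. Syne2 had another probe set that differed by less than 2-fold between mGS and GS.

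The nearest genes to Id3 were Nav1, at 0.26, Pclaf, at 0.38, Mki67, at 0.52, Dusp4, at 0.66, and Ccnb2, at 0.99. Of 3 other Nav1 probe sets, 1 was under 2-fold for the knockout against GS, and 2 for mGS against GS. Pclaf binds the replication clamp, Mki67 is a marker of dividing cells, Ccnb2 is a mitotic cyclin, and Dusp4 is a phosphatase that switches off ERK. Mki67 read 6715 on the GS array, 487 on the knockout, 3435 on mGS and 3925 on ES. Pclaf read 6971, 523, 4344 and 6680 in that order. Both were low on the knockout array alone, as follows from choosing genes by their closeness to the Id3 pattern. Nav1 and Dusp4 were under the floor on the knockout array, so their distances rest on a bound. The same holds for all distances and counts of Id2, which was at the floor on the GS and knockout arrays, and for Padi3 and Gsto2 near Id4.

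**Figure D3:**
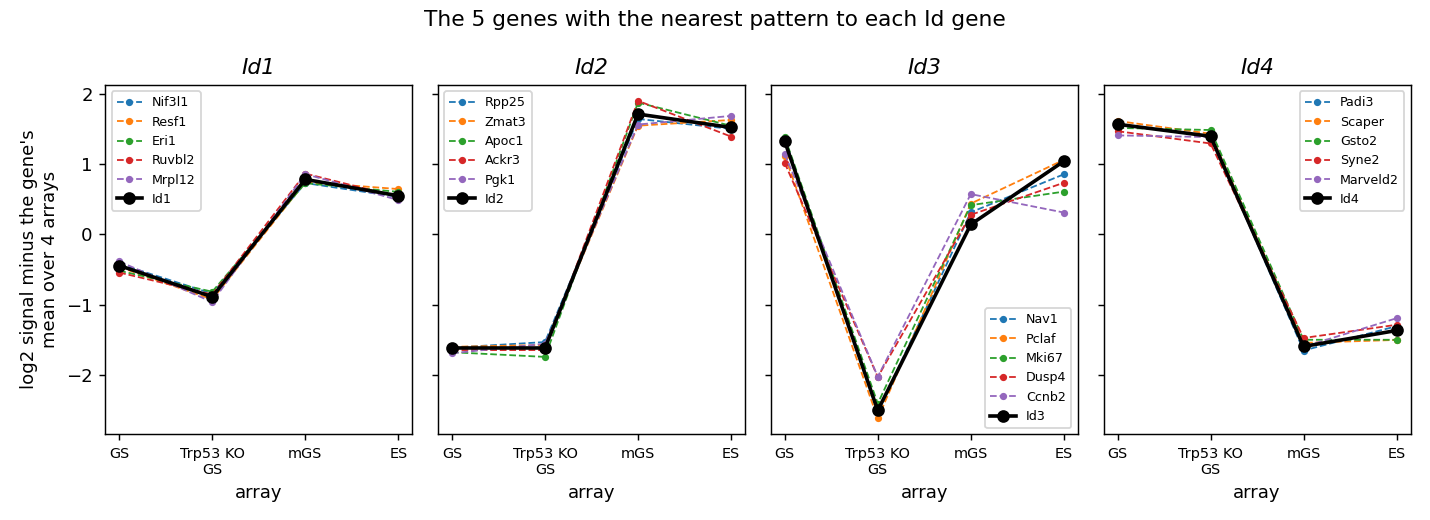
Log2 signal minus the gene's own mean over the 4 arrays, for each Id gene (black) and the 5 genes with the nearest pattern (coloured, broken lines that only join points). The Id1, Id2 and Id4 panels are tight, with distances up to 0.24, and the Id3 panel is looser, reaching 0.99 for Ccnb2.

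Of the E protein genes, the partners that Id proteins hold, Tcf3 and Tcf12 were lower on the mGS array and Tcf4 was not. Tcf3 read 2238 on the GS, 3489 on the knockout, 980 on the mGS and 1117 on the ES array. Tcf12 read 4323, 3626, 1483 and 2824. Tcf3 was 2.28-fold and Tcf12 2.92-fold lower on mGS than on GS. For each, 1 further probe set was lower by less than 2-fold. Over all genes, 16.5% were lower and 15.3% higher by 2-fold between these arrays. Tcf4 read 498, 458, 880 and 771 and was 1.77-fold higher on mGS. None of the 3 differed by 2-fold between ES and mGS or between knockout and GS, where Tcf3 had a log2 difference of 0.64. Over all genes, 6.90% were higher and 5.13% lower on ES than on mGS. For the knockout against GS, 9.77% were higher and 6.93% lower. With 3 genes, such shares leave few calls to be seen.

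Of 34 tissue-specific bHLH genes, which act in pairs with E proteins, 33 were measured and 17 passed the floor on some array. Of 14 compared between mGS and GS, 6 were lower and 2 higher by 2-fold or more, beside 16.5% and 15.3% of all genes, and they had a median log2 difference of -0.38 beside -0.04 over all genes. Among the lower ones, Sohlh1, which acts in spermatogonial differentiation, was at least 12.8-fold lower, Figla, an oocyte factor, at least 7.96-fold, Sohlh2 6.26-fold and Neurog3, a factor of spermatogonia, 6.05-fold. Neurod1 was at least 6.06-fold higher. Neurog3 read 963 in GS and 3985 in knockout cells, a 4.14-fold difference. Sohlh2 read 4633 and 2135 and was 2.17-fold lower on the knockout. Olig1, Olig2 and Twist2 were above the floor on the ES array only, at 1996, 1182 and 675. Tcf15, a bHLH gene known in ES cells as a target that Id proteins restrain, lay within 2-fold between mGS and GS, at 1813 in GS, 1002 in knockout, 1878 in mGS and 1497 in ES cells. It had a log2 difference of -0.85 between the knockout and GS, and passed 2-fold there with arrays centred on their medians.

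Among Hes, Hey and Bhlhe genes, repressors of the same wider family, 2 of 5 compared were lower in mGS by 2-fold or more and none higher, beside 16.5% and 15.3% of all genes. Hes1, a target of Notch, read 1099 on the GS, 1061 on the knockout, 302 on the mGS and 367 on the ES array, and was 3.64-fold lower on mGS. Bhlhe41 was at least 2.71-fold lower. Against GS, the knockout array was 3.85-fold lower for Bhlhe40 and 2.54-fold lower for Bhlhe41, and 2.33-fold higher for Hey1.

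Bmp4, a BMP ligand gene, was under the floor on the GS and knockout arrays and read 1421 on the mGS and 433 on the ES array. It was at least 17.2-fold higher on mGS than on GS and 3.28-fold lower on ES than on mGS. Gdf3, a related ligand of pluripotent cells, was at least 47.0-fold higher on mGS. Bmp7 read 374 in GS and 115 in knockout cells and was under the floor on the other pair. It was 3.25-fold lower on the knockout, but 1 of its other probe sets had the opposite sign. In all, 7 of 15 BMP and GDF ligand genes measured could be compared between mGS and GS. Of these, 2 were higher and 1 lower by 2-fold, beside 15.3% and 16.5% of all genes. Bmp6, Bmp8b, Gdf2 and Gdf9 stayed within 2-fold there. Of 6 TGF-beta, activin and Nodal ligand genes compared, 5 were higher and 1 lower by 2-fold, beside the same shares of all genes. Tgfb1 was 3.54-fold lower and Nodal at least 32.1-fold higher. Of the 5, Inhba, at 2.08-fold, was short of 2-fold in the values as deposited.

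Of 14 receptor genes compared between mGS and GS, 2 were higher and 4 lower by 2-fold, beside 15.3% and 16.5% of all genes. The type I receptor gene Bmpr1a read 1696, 1087, 1482 and 1618 on the GS, knockout, mGS and ES arrays, and Acvr1 415, 499, 325 and 424, and neither differed by 2-fold in any comparison. The type II receptor gene Bmpr2 read 426, 539.7, 1275 and 1236, with a log2 difference of 1.58 between mGS and GS, but its other probe set had the opposite sign. The coreceptor genes Eng and Rgmb were 3.48-fold higher and 3.93-fold lower on mGS. The other probe set of Eng and 3 of the 4 others of Rgmb differed by less than 2-fold. Tgfbr3, a TGF-beta coreceptor gene, read 588 on GS and 107 on mGS, 5.50-fold lower, with its other probe set under 2-fold. Tgfbr2 was at least 2.80-fold lower on mGS than on GS, 2.21-fold lower on the knockout than on GS, and at least 7.51-fold higher on ES than on mGS. Acvr2b was 2.03-fold lower on mGS and under 2-fold at its other probe set. For mGS against GS the log2 differences were 0.51 for Acvr2a, 0.59 for Amhr2, -0.89 for Tgfbr1 and -0.21 for Acvr1b. Rgma and Hjv lay near the floor, and Acvrl1 and Acvr1c were under it on all arrays. Bmpr1b was above the floor on the knockout and ES arrays, at 236 and 109, and was at least 2.85-fold higher on the knockout than on GS.

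Of 7 Smad genes compared between mGS and GS, 1 was higher and 2 lower by 2-fold, beside 15.3% and 16.5% of all genes. Between the knockout and GS, 1 of 7 was higher and 1 lower, beside 9.77% and 6.93%. Smad4 and Smad5 stayed within 2-fold in every comparison. Smad4, the shared partner, read 3700, 3852, 3248 and 2879, and Smad5, a BMP Smad, read 606, 551, 503 and 400.3. Smad1, the other BMP Smad above the floor, read 1246, 726, 549 and 909 and was 2.27-fold lower on mGS than on GS, by less than 2-fold at its other probe sets. Smad9 was under the floor on all arrays. Smad6 and Smad7 are inhibitory Smads that BMP and TGF-beta signals induce. Smad6 read 659 on the GS, 165 on the knockout, 664 on the mGS and 208 on the ES array, and Smad7 310.3, 354, 791 and 1224. Smad6 was 3.98-fold lower on the knockout than on GS, and Smad7 2.55-fold higher on mGS than on GS. At its other probe set Smad7 was just under 2-fold. Of the TGF-beta Smads, Smad2 was 2.69-fold lower on mGS, with another probe set of opposite sign, and Smad3 2.18-fold higher on the knockout, which was short of 2-fold at both other probe sets and with arrays centred on their medians.

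Of 15 other BMP target genes measured, 12 passed the floor on some array, and they lay on both sides. Between the knockout and GS arrays, 3 of 11 compared were lower by 2-fold or more and 2 higher, beside 6.93% and 9.77% of all genes, and they had a median log2 difference of 0.10 beside 0.07 over all genes. The ERK phosphatase gene Dusp9 read 3020 on the GS, 229 on the knockout, 654 on the mGS and 1089 on the ES array. It was 13.2-fold lower on the knockout than on GS and, like Id3, higher on the ES than on the mGS array, by 1.66-fold. Smad6, given above, and the homeobox gene Dlx3, 3.14-fold, were the other lower ones, and Atoh8, at least 4.87-fold, and Hey1 were higher. Between mGS and GS, 2 of 10 were higher, Tbx3 and Smad7, and 3 lower, beside 15.3% and 16.5% of all genes. Tbx3, a pluripotency factor, was at least 15.5-fold higher, with 1 of 3 other probe sets under 2-fold. Msx2 was at least 7.85-fold lower and Dusp9 4.62-fold lower. Dlx3 read 330 on GS and was under the floor on mGS. Between ES and mGS, Tbx3 was 4.62-fold and Smad6 3.20-fold lower, and none of 10 was 2-fold higher. Over all genes, 5.13% were lower and 6.90% higher by 2-fold. Of 3 other Tbx3 probe sets, 1 was under 2-fold there.

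Of 15 BMP antagonist genes measured, 11 passed the floor on some array. Between mGS and GS, 1 of 6 was lower, beside 16.5% of all genes: Chrd, at least 3.60-fold. Chrd was equally at least 3.60-fold lower on the knockout than on GS. Between ES and mGS, 4 of 8 were higher and none lower, beside 6.90% and 5.13% of all genes. The 4 were Fst, 8.10-fold, Grem1, 6.71-fold, Fstl1, 4.85-fold, and Nbl1, at least 2.24-fold. The fibroblast markers given above differed the same way between these arrays, and the part of other cells in this was not tested. Of 16 Smad cofactor and regulator genes compared between mGS and GS, 4 were higher and 3 lower by 2-fold, beside 15.3% and 16.5% of all genes, among them the corepressor genes Skil, 6.68-fold higher, and Ski, 3.01-fold lower, the latter not borne out by its other probe set. None of this list differed by 2-fold between ES and mGS or between the knockout and GS. Over all genes, 6.90% were higher and 5.13% lower on ES than on mGS. For the knockout against GS, 9.77% were higher and 6.93% lower.

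**Figure D4:**
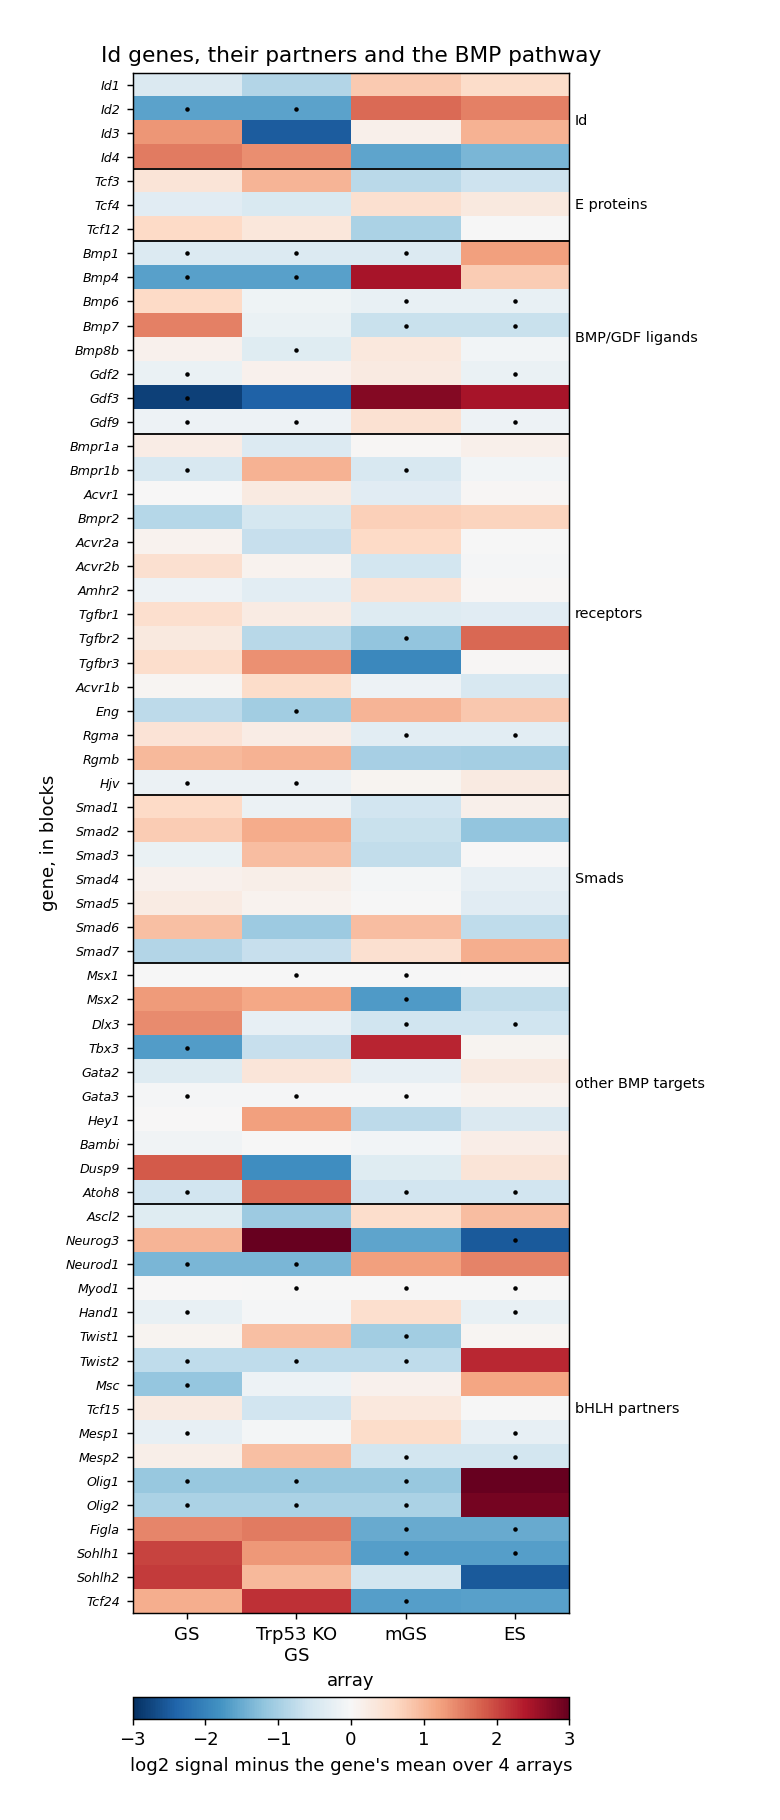
Log2 signal minus the gene's own mean over the 4 arrays (colour, limited to 3 either way) for Id genes, E proteins, BMP and GDF ligands, receptors, Smads, other BMP targets and bHLH partners that passed the floor on any array; dots mark values under the floor, drawn at it. Id4 and the germ cell bHLH genes Figla, Sohlh1 and Sohlh2 are high on the GS arrays, Id2, Bmp4 and Gdf3 on the mGS and ES arrays, and Id3 and Dusp9 are lowest on the knockout array.

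Genes regulated by E proteins, which include cell cycle inhibitors that Id proteins are known to restrain, also lay on both sides. Of 9 compared between mGS and GS, 2 were higher and 4 lower by 2-fold, beside 15.3% and 16.5% of all genes. Their median log2 difference was -0.70, and that of all genes -0.04. The CDK inhibitor gene Cdkn1c read 1872 on the GS, 753 on the knockout, 192 on the mGS and 676 on the ES array, and was 9.75-fold lower on mGS. Hes1, given above, Cdkn2a, at least 3.39-fold, and Foxo1, 2.80-fold, were the other lower ones. Of 3 other Foxo1 probe sets, 1 was under 2-fold. The E-cadherin gene Cdh1 and the N-cadherin gene Cdh2 were 3.18-fold and 2.74-fold higher. At the other probe set of Cdh2 the log2 difference was 0.91, under 2-fold. Against GS, the knockout array was at least 18.6-fold lower for Cdh1, 2.48-fold lower for Cdkn1c and 4.84-fold higher for Cdkn1b. These were 3 of the 10 genes compared, where 6.93% of all genes were lower and 9.77% higher. Between ES and mGS, Cdkn1a, Cdkn1c and Cdkn2b were 2.92-fold, 3.52-fold and 5.67-fold higher in ES, while none of 10 was 2-fold lower. Over all genes, 6.90% were higher and 5.13% lower by 2-fold. At the other probe set of Cdkn1a the log2 difference was 0.63.

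Markers of other cells were compared in the same way. Beside the differences between mGS and GS given above, 7 of 13 fibroblast markers were higher and 2 lower on mGS by 2-fold or more. Over all genes, 15.3% were higher and 16.5% lower by as much. The lower ones were Col5a1 and Pdgfra, each under 2-fold at its other probe sets, and Col1a1 lay within 2-fold. The summed signal of the list was 5113 on GS and 25444 on mGS, where Fn1 read 10096 and Vim 7871. Col3a1, Postn, Lum, Dcn and Pdgfrb were under the floor on both. Of 6 Sertoli markers compared between these arrays, 3 were higher on mGS and 1 lower, beside the same shares of all genes. Rhox5 was at least 95.2-fold, Inhbb at least 11.6-fold and Clu 3.56-fold higher. Sox9 was lower, at least 2.09-fold, and under 2-fold at its other probe set. The summed signal of the 11 listed was 939 on GS, 786 on the knockout, 10208 on mGS and 4045 on ES. Rhox5 alone made 7866 of the sum on mGS and 1624 on ES. Amh, Inha, Fshr and Dhh were under the floor on all arrays. Of the leukocyte markers, Cd68 was 5.47-fold higher on mGS. The summed signal was 489 on GS and 1222 on mGS, of which Cd68 made 970. Ptprc, Adgre1 and Cd3e were under the floor on all arrays. Of the endothelial markers, Pecam1 was 15.0-fold higher on mGS. The summed signal was 195.1 on GS and 1866 on mGS, of which Pecam1 made 1616. Cdh5, Kdr and Emcn were under the floor on all arrays. Of 7 Leydig and peritubular markers, Cyp11a1 was at least 3.99-fold higher on mGS, and Cyp17a1, Hsd3b1, Nr5a1 and Myh11 were under the floor on all arrays. Of 7 markers of differentiating derivatives compared, the keratin genes Krt8 and Krt18 were 7.43-fold and 4.32-fold higher on mGS. Foxa2 was at least 8.29-fold lower, and Nes 2.74-fold lower with another probe set of opposite sign. Sox17, Pax6, Sox1 and Cdx2 of that list were under the floor on all arrays. Whether such cells were present was not tested, nor was their part in the Id values of the mGS and ES arrays.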

How the data were processed

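RNA of 4 mouse cultures was measured on Affymetrix arrays. Per the labels' protocols, the cultures' RNA came from Trizol extraction and was hybridised as cRNA carrying biotin. The deposited values are 1 linear intensity per probe set and array. The authors' summarising software was not given in the sources used here. On every array the mean after trimming 2% from each end is 500.0. That places the deposited arrays on a common scale.

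After 64 control probe sets were removed, log2 values of 45037 probe sets were quantile normalised over the 4 arrays, which hides changes in total RNA. The platform's annotation gave 34958 probe sets a single symbol. A further 932 with several symbols were left out, and 9160 of those used were not listed. Symbols were updated by gene identifier to assembly GRCm38.p6, and 34754 matched. A gene took its probe set with the highest mean. Values under the array median, 6.37 on the log2 scale, were raised to it, and a gene below that level on both arrays of a pair got no value. The call was a 2-fold difference. With 1 array per group no test was run. The genes named were the Id genes, the 5 nearest patterns of each, and members of gene lists by size of difference, up to 4 per direction, with E protein, receptor and Smad genes whatever their values. Members and lists were chosen with earlier results of these data known. Promoter windows came from RefSeq, 3 of the 4 genes matching. A set of 9 alternatives was planned, and 1 was added after seeing the data. The steps were tested on simulated data. The software was matplotlib 3.10.9, pandas 2.3.3, scipy 1.17.1 and numpy 2.4.6 under Python 3.11.15. The number of arrays limits the precision.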

Additional observations from a re-analysis of the deposited data

How the results depend on the processing

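The log2 differences of Id1, Id3 and Id4 kept their sign under every alternative run. For mGS against GS they lay between 1.14 and 1.25 for Id1, between -1.30 and -1.16 for Id3, and between -3.31 and -2.57 for Id4. For ES against GS, Id4 lay between -3.03 and -2.12. For the knockout against GS, Id3 lay between -3.93 and -3.59. Calls of some list members changed with the scaling of the arrays, such as those of Hes5, Heyl and Piwil2 for the knockout against GS. Of the Id results, those that changed concern Id2 and 1 value of Id1. Leaving out probe sets of the _s_at, _x_at and _a_at types left Id2 with its dim probe set, with bounds of 0.18 for mGS and 0.39 for ES against GS. For mGS against GS, the Id genes at least 2-fold higher were then 1 in place of 2. For ES against GS they were 0 in place of 1. Those at least 2-fold apart the same way in every pair of mGS or ES with GS or knockout were 1 in place of 2. Without the floor, and with a pseudocount of 32, Id2 differed by 1.44 and 1.38 between the knockout and GS arrays, which made 1 gene higher in place of 0. When quantile normalisation left out the knockout array, a setting added after seeing the data, Id1 reached 1.01 for ES against GS, which made 2 genes higher in place of 1. Id2 for ES against mGS ran from -0.29 to 0.46, with no call. No paired analysis was possible because each group has 1 array.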
